A study of Mus musculus with 10 samples.

Results

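The HoxA and HoxB genes described here are 10 of the 33393 genes with a value above 0 in at least 1 library of CD34- hematopoietic stem cells (HSCs): Hoxa3, Hoxa5, Hoxa7, Hoxa9, Hoxa10, Hoxb2, Hoxb3, Hoxb4, Hoxb5 and Hoxb8. They were chosen by gene symbol, with all annotated transcripts of each gene added up. HSCs were sorted as Lin- Sca-1+ c-Kit+ CD34- Flt3- cells from the femurs of single C57BL/6 mice of 8 weeks. Controls were Reg1 flox/flox mice (5 libraries), whose gene for the RNA-degrading enzyme Regnase-1, Zc3h12a, is flanked by loxP sites and intact. Mice labelled Reg1Δ/Δ (5 libraries) were Vav1-iCre; Reg1 flox/flox, so that both groups carry the floxed alleles and the recombinase is made in all blood cells rather than in HSCs alone. By the form of the sample names, 3 libraries per group belong to experiment 1 and 2 per group to experiment 2. The comparison asks how the RNA of stem cells differs where Regnase-1 is deleted.

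Hox genes encode homeodomain transcription factors that lie in clusters, with the paralogues in the order in which they are used along the body axis of the embryo. Blood stem and progenitor cells keep part of the HoxA and HoxB clusters active, and the RNA of most of these genes declines as the cells mature. Hox proteins bind DNA together with homeodomain partners of the TALE class (Pbx and Meis proteins), and their chromatin is held active by MLL complexes and silent by Polycomb complexes. Hoxa9 with its partner Meis1 is known as a driver of acute myeloid leukemia.

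Levels are given in TPM, the share of a transcript among all transcripts of a library, which is corrected for transcript length and can therefore be compared between genes. Zc3h12a was not lower in the libraries labelled Reg1Δ/Δ. It stood at 2.08 to 3.54 TPM there against 1.28 to 1.83 TPM in the controls of experiment 1, and at 8.52 to 10.3 against 1.48 to 6.07 TPM in experiment 2 (log2 fold change 0.83, SE 0.28, FDR = 0.0314 by limma), so groups are named by their labels throughout, and directions follow the labels. By quantitative PCR, another measure, the paper reports almost no Regnase-1 RNA in CD34- HSCs from Reg1Δ/Δ mice. The experiments differed in make-up, with 46.2% to 49.1% of the TPM in protein-coding transcripts in experiment 1 and 73.5% to 81.1% in experiment 2. In experiment 1, 14276 to 14307 genes were at 1 TPM or more in the controls and 12006 to 12048 in the libraries labelled Reg1Δ/Δ. In experiment 2 these numbers were 13366 to 13717 and 11256 to 11398. TPM is relative, and more genes were called lower than higher. Of 12874 genes tested with limma on log2(TPM + 1), 4880 (37.9%) were lower and 1933 (15%) higher in the libraries labelled Reg1Δ/Δ at FDR under 0.05, so that 71.6% of calls were lower, and the median of all log2 fold changes was -0.25. After quantile normalization 2627 were lower and 3921 higher (40.1% of calls lower), and after median-of-ratios scaling 3389 and 4059 (45.5%). These scalings raised the median by 0.41 and 0.32.

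The HoxA part of the group dominated in every library. The HoxA members summed to 44.3 to 67.5 TPM in the controls and to 10.9 to 19.8 TPM in the libraries labelled Reg1Δ/Δ. The HoxB members summed to 2.25 to 2.95 TPM in the controls of experiment 1, to 7.62 and 10.6 TPM in those of experiment 2, and to 0.378 to 0.729 and 2.17 to 3.32 TPM in the matching libraries labelled Reg1Δ/Δ. Hoxa9 alone held 42.4% to 57.3% of the TPM of all 10 genes in the controls and 49.0% to 63.6% in the libraries labelled Reg1Δ/Δ. In the controls the order of the levels was Hoxa9, Hoxa7, Hoxa10 and then the rest. The ranges of these leading genes did not overlap in either experiment. Below them, Hoxa5, Hoxa3, Hoxb5 and Hoxb2 overlapped in experiment 1, with Hoxb3 and Hoxb4 as a lower, overlapping pair. In experiment 2 Hoxa5 stood apart from the rest, and Hoxb2, Hoxb4, Hoxa3, Hoxb5 and Hoxb3 overlapped with their neighbours in the order, above Hoxb8.

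**Figure D1:**
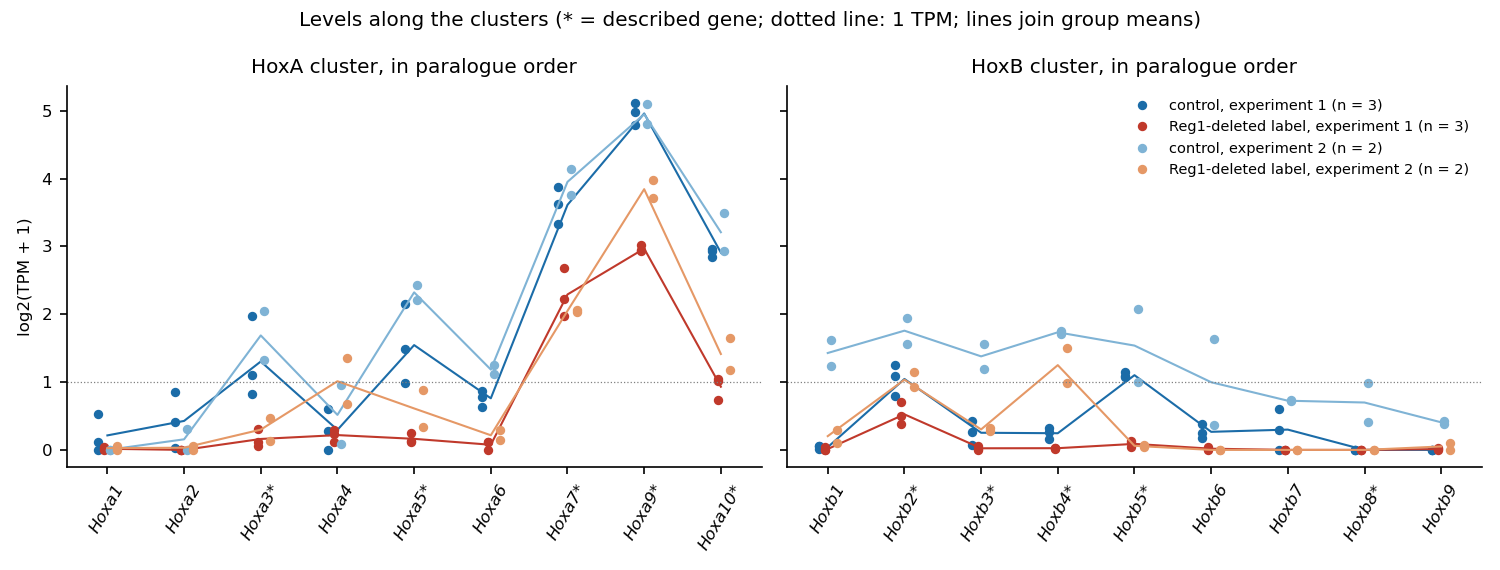
Level of the HoxA and HoxB genes in paralogue order, as log2(TPM + 1) on the vertical axis, with 1 point per library and lines through the group means; asterisks mark the genes described. The level peaks at Hoxa9 in all 4 groups, and most HoxB points lie near or under the dotted line at 1 TPM.

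Hoxa7, Hoxa9 and Hoxa10 were the genes with the most RNA, and for all 3 each library labelled Reg1Δ/Δ lay under the lowest control of its experiment. They lie side by side on the minus strand of chromosome 6 of GRCm38 (GENCODE M21), Hoxa7 from 52214491 to 52221854, Hoxa9 from 52223100 to 52231089 and Hoxa10 from 52231197 to 52240854. The RefSeq promoter tables for GRCm38.p6 hold the start sites of 7 of the 10 genes (Hoxa3, Hoxa5, Hoxa7, Hoxa9, Hoxa10 with a further start, Hoxb4 and Hoxb8). Shown are the 250 bases before the start of Hoxa9 (chr6:52227371-52227620, minus strand) and before the inner start of Hoxa10 (chr6:52234940-52235189, minus strand), shown as 2 of the 3 genes with the most RNA, and of Hoxb4 (chr11:96318017-96318266, plus strand), which was near 0 in experiment 1. Each is 5′ to 3′ on the strand of the gene, and capitals mark matches to the motifs searched.
Hoxa9: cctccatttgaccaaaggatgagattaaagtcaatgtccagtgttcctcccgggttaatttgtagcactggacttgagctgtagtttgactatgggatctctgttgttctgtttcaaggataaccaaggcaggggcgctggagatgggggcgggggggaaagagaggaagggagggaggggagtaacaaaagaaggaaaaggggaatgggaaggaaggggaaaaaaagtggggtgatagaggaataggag
Hoxa10: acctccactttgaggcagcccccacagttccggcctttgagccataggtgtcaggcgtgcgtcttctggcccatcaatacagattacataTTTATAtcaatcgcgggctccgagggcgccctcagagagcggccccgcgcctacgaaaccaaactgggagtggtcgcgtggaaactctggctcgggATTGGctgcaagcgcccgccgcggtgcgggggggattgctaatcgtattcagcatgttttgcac
Hoxb4: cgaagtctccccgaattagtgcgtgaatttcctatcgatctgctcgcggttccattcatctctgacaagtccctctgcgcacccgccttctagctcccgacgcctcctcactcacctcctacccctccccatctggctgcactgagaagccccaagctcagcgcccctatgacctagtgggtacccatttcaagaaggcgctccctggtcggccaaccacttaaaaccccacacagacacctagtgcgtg

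Both strands of these 250-base windows were searched for 6 motifs. The box of the factor NF-Y was spelled CCAAT. For the E-box, which USF factors bind, the letters were CACGTG. Meis proteins were searched for with TGACAG and the pair of Pbx and Hox with TGATNNAT. The other motifs were the TATA box, as TATAAA, and the site of GATA factors, as AGATAA. No match overlapped another. The Hoxa10 window held a TATA box and a CCAAT box, and the windows of Hoxa9 and Hoxb4 held none of the 6 motifs. Over the 8 windows of the 7 genes, CCAAT was in 3 (Hoxa5, Hoxa10 and Hoxb8), the TATA box in 2 (Hoxa10 and Hoxb8), the Meis motif in 1 (Hoxa3) and the Pbx with Hox motif in 1 (Hoxb8). The E-box and the GATA motif were in 0 of the 8. Among 32851 RefSeq windows of the same length, 33.9% held CCAAT, 12.4% the TATA box, 15.9% the Meis motif, 7.68% the Pbx with Hox motif, 6.02% the E-box and 9.99% the GATA motif. The windows of Hoxa9 and Hoxa10 also differed in base composition, with 3 CpG dinucleotides and 49.6% G and C in the former and 20 and 59.2% in the latter, against medians of 6 and 52.4% over all windows.

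Hoxa9, the partner of Meis1, had the highest level. In the controls it was at 30.5, 33.5 and 26.7 TPM in experiment 1 and at 26.9 and 33.1 TPM in experiment 2. In the libraries labelled Reg1Δ/Δ it was at 6.63, 7.13 and 6.71 TPM and at 14.7 and 12.1 TPM. The controls of both experiments thus covered the same range, whereas the libraries labelled Reg1Δ/Δ of experiment 2 were higher than those of experiment 1, and the groups did not overlap. The mean fell from 30.2 ± 3.42 to 6.82 ± 0.269 TPM (SD, n = 3) in experiment 1, 4.43-fold, and from 30.0 ± 4.38 to 13.4 ± 1.82 TPM (SD, n = 2) in experiment 2, 2.24-fold. By limma over both experiments the log2 fold change was -1.64 (SE 0.18, FDR = 5.02e-05). It was -1.99 in experiment 1 (FDR = 2.00e-05) and -1.11 in experiment 2 (FDR = 0.00186). The difference between the experiments was 0.89 on the log2 scale (95% interval 0.37 to 1.40), which did not pass after adjustment (unadjusted p = 0.00392, FDR = 0.176 by limma).

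Hoxa10, a neighbour of Hoxa9 with a closely related homeodomain, had the lowest log2 fold change of the 4 tested genes over both experiments. Hoxa9 was as low in experiment 1 (-1.99 against -1.98), Hoxa7 was lower in experiment 2 (-1.90 against -1.79), and Hoxa9 was lower after quantile normalization (-1.22 against -1.03). Over coding transcripts alone Hoxa10 was the least changed of the HoxA genes tested in both such fits, at -1.42 beside -1.69 for Hoxa7 and -1.60 for Hoxa9 with TPM rescaled to coding transcripts, and at -1.11 beside -1.58 and -1.50 without rescaling, with none of these differences between genes being tested. Its levels in the controls were 6.15, 6.60 and 6.78 TPM in experiment 1 and 6.60 and 10.2 TPM in experiment 2. The libraries labelled Reg1Δ/Δ had 1.01, 0.672 and 1.06 TPM and 1.27 and 2.13 TPM. Here the libraries of both experiments sat close together, with 1 control of experiment 2 above the rest. The log2 fold change was -1.90 (SE 0.14, FDR = 5.08e-06 by limma), and it was -1.98 in experiment 1 (FDR = 8.01e-05) and -1.79 in experiment 2 (FDR = 6.12e-04). In TPM the means were 7.11-fold and 4.96-fold lower, more than the log2 values say, since the pseudocount of 1 damps the change of genes near 1 TPM. With a pseudocount of 0.1 the log2 fold change was -2.54.

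Hoxa7, a factor of the middle of the cluster, was at 11.3, 13.7 and 9.09 TPM in the controls of experiment 1 and at 12.6 and 16.6 TPM in those of experiment 2. The libraries labelled Reg1Δ/Δ were at 3.68, 2.92 and 5.40 TPM and at 3.17 and 3.11 TPM. The highest of these was still well under the lowest control. The log2 fold change was -1.55 (SE 0.19, FDR = 9.72e-05 by limma), with -1.32 in experiment 1 (FDR = 0.00140) and -1.90 in experiment 2 (FDR = 9.34e-04). After quantile normalization it was -0.82 (FDR = 0.00584) and after median-of-ratios scaling -1.24. Part of the exon sequence of Hoxa7 (20.4%) is shared with Hoxaas3, a non-coding gene on the opposite strand, and the library kit does not mark the strand, so reads there cannot be told apart. Hoxaas3 was at 0.916 to 1.84 TPM in the controls and 0.775 to 2.17 TPM in the libraries labelled Reg1Δ/Δ, and it was not called (log2 fold change -0.13, FDR = 0.537 by limma), though it was called higher after quantile normalization (0.74, FDR = 0.00306).

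Hoxb2, which specifies the hindbrain in embryos, was the only HoxB gene with enough signal to be tested. The controls had 1.38, 1.13 and 0.734 TPM in experiment 1 and 1.96 and 2.86 TPM in experiment 2, and the libraries labelled Reg1Δ/Δ had 0.408, 0.626 and 0.300 TPM and 1.21 and 0.895 TPM. Within each experiment the groups did not overlap, but the libraries labelled Reg1Δ/Δ of experiment 2 lay within the range of the controls of experiment 1. It passed the filter, which asks for 1 TPM or more in 5 or more libraries, through 4 controls and 1 library labelled Reg1Δ/Δ. The log2 fold change was -0.60 (SE 0.13, FDR = 0.00414 by limma) as deposited and turned to 0.17 (FDR = 0.247) after quantile normalization, while it stayed lower after median-of-ratios scaling (-0.43, FDR = 0.0142). With a pseudocount of 0.1 in place of 1 it was -1.12 (FDR = 0.00269). Opposite Hoxb2 lies Hoxb3os, which shares 27.3% of its exon bases and was at 0.243 to 2.05 TPM in the controls and 0 to 0.388 TPM in the libraries labelled Reg1Δ/Δ.

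In all, 4 of 10 genes could be tested, and all 4 were called lower over both experiments, beside 37.9% of all tested genes. All 4 were also called lower in experiment 1, where 37.4% of genes were lower and 12.3% higher, and in experiment 2, where 22.9% were lower and 6.6% higher. The call of Hoxb2 within an experiment rested on single libraries: it was lost (FDR by limma from 0.0718 to 0.17, log2 fold change still below 0) without control 1 or 2 or Reg1Δ/Δ library 1 or 3 of experiment 1, and without control 2 or either Reg1Δ/Δ library of experiment 2. The calls of Hoxa7, Hoxa9 and Hoxa10 within each experiment stayed without any 1 library. With experiment 2 fitted alone, without the spread of experiment 1, only Hoxa7 was called (FDR = 0.053 for Hoxa9, 0.0604 for Hoxa10 and 0.112 for Hoxb2 by limma), and after quantile normalization 2 of the 4 were called in experiment 1 and 3 in experiment 2. After median-of-ratios scaling 3 of the 4 were called in each experiment. Each lay below every control of its experiment in every library labelled Reg1Δ/Δ, as did 31.4% of tested genes. For none of the 4 did the effect differ between the experiments at FDR under 0.05 (1 of 4 at an unadjusted p under 0.05, Hoxa9), while 57 of all 12874 genes (0.443%) did by limma (1603 at an unadjusted p under 0.05). The intervals of that difference ran from -1.37 to 0.21 for Hoxa7, from -0.50 to 0.87 for Hoxa10 and from -0.83 to 0.43 for Hoxb2 on the log2 scale, so that differences within these bounds could not be told from 0.

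**Figure D2:**
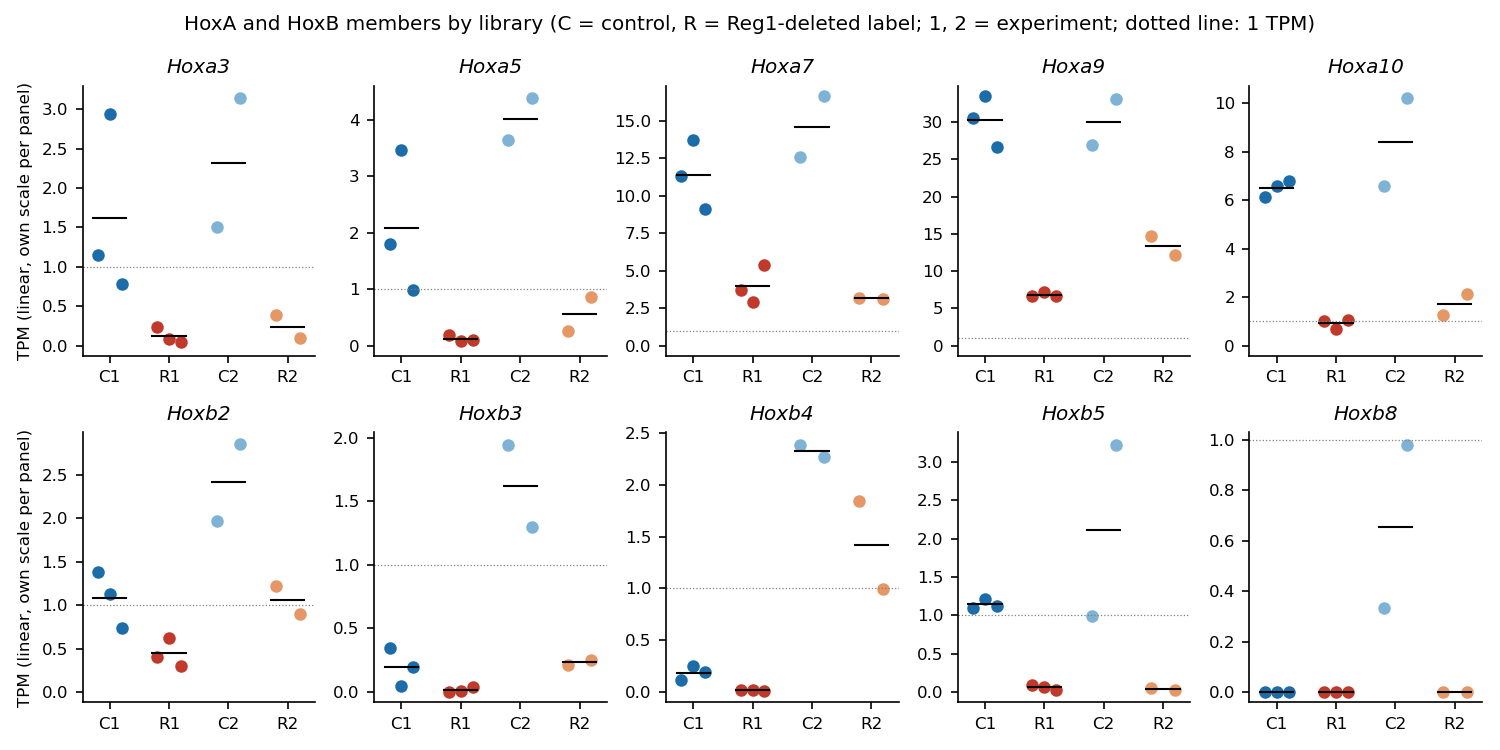
TPM of each of the 10 genes in every library, on a linear axis of its own per panel; points are libraries and bars group means, with controls in blue (C) and libraries labelled Reg1Δ/Δ in red or orange (R). In 9 of the 10 panels all R points lie below all C points of the same experiment, the exception being Hoxb8, which was at 0 in all libraries of experiment 1.

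The other 6 genes fell short of the filter. Hoxa3, a gene of the anterior cluster, was at 1.15, 2.94 and 0.777 TPM in the controls of experiment 1 and 1.51 and 3.14 TPM in those of experiment 2, against 0.240, 0.0804 and 0.0441 TPM and 0.382 and 0.0948 TPM. Hoxa5 was at 1.80, 3.46 and 0.991 TPM and 3.64 and 4.39 TPM in the controls, against 0.187, 0.0800 and 0.0951 TPM and 0.259 and 0.854 TPM. Hoxb5, whose reporter is used to mark long-term HSCs in mice, was at 1.10, 1.21 and 1.12 TPM and 0.995 and 3.23 TPM, against 0.0926, 0.0678 and 0.0314 TPM and 0.0562 and 0.0292 TPM. For these 3 genes every library labelled Reg1Δ/Δ was under 1 TPM and most controls were above it, with no overlap of the groups. The filter left each of them out because it was at 1 TPM or more in 4 libraries, all controls, 1 short of the 5 asked for. With TPM rescaled to coding transcripts, Hoxa5 reached 1 TPM in 6 libraries and was called lower. These were all controls (2.14 to 7.49 TPM) and 1 library labelled Reg1Δ/Δ (1.16 TPM), so it passed the filter through the controls. Of the exon bases of Hoxa3, 25.4% are shared with genes on the opposite strand and 8.01% with the read-through gene Gm28308 on the same strand.

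Hoxb4, which expands HSCs in culture when overexpressed, depended on the experiment. Its levels in the controls were 0.117, 0.248 and 0.197 TPM in experiment 1 and 2.39 and 2.27 TPM in experiment 2, and in the libraries labelled Reg1Δ/Δ 0.0219, 0.0241 and 0.00743 TPM and 1.84 and 0.990 TPM. The gap between the experiments was thus wider than that between the groups, and the means of the groups differed 10.5-fold in experiment 1, with no value above 0.248 TPM, and 1.64-fold in experiment 2. Hoxb3 was likewise higher in experiment 2, at 0.350, 0.0468 and 0.197 TPM and 1.94 and 1.30 TPM in the controls against 0, 0.0113 and 0.0393 TPM and 0.213 and 0.253 TPM. As 52.9% of its exon bases are shared with Hoxb3os on the opposite strand, its value is uncertain. Hoxb8 was listed at 0 in 8 of 10 libraries and at 0.331 and 0.979 TPM in the controls of experiment 2.

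Without the filter, limma on all 33393 genes called 8 of the 10 genes lower, beside 16.7% of all genes. To the 4 above it added Hoxa3 (log2 fold change -1.24, FDR = 0.00664), Hoxa5 (-1.51, FDR = 0.00165), Hoxb5 (-1.20, FDR = 0.00276) and Hoxb3 (-0.57, FDR = 0.0479). Hoxb4 (-0.33, FDR = 0.0509) and Hoxb8 (-0.28, FDR = 0.268) did not pass. Every library labelled Reg1Δ/Δ was below every control of its experiment in 9 of the 10 genes, beside 16.5% of all 33393 genes. Values this close to 0 rest on few reads, and as TPM keeps no read numbers, their counting error cannot be given.

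The transcripts within these genes were not the same in the 2 experiments. For Hoxa9, the 3226-nt coding transcript (ENSMUST00000048680, which begins at the promoter shown above) was at 14.0, 27.4 and 13.3 TPM in the controls of experiment 1 but at 2.95 and 7.36 TPM in those of experiment 2. A 678-nt non-coding transcript (ENSMUST00000154641), which starts upstream at the far end of the gene, was at 7.93, 2.88 and 8.42 TPM and at 16.0 and 19.9 TPM. So the similar totals of the controls hid opposite make-ups, and coding transcripts held 68.7% of the Hoxa9 TPM in the controls of experiment 1 and 38.2% in those of experiment 2. In the libraries labelled Reg1Δ/Δ the shares were 63.4% and 47.2%. Counted over coding transcripts alone, Hoxa9 was at 17.9, 29.5 and 15.0 TPM and 10.3 and 12.7 TPM in the controls and at 4.62, 4.92 and 3.45 TPM and 6.70 and 5.94 TPM in the libraries labelled Reg1Δ/Δ. The groups remained apart in each experiment.

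Much of the Hoxa10 signal was not coding. A 1710-nt processed transcript (ENSMUST00000126402) was at 4.50, 4.98 and 4.43 TPM in the controls of experiment 1 and at 1.76 and 6.80 TPM in those of experiment 2, and at 0.499, 0.383 and 0.943 TPM and 0 and 0.299 TPM in the libraries labelled Reg1Δ/Δ. Coding Hoxa10 was at 1.65, 1.62 and 2.35 TPM and 4.84 and 3.44 TPM in the controls, against 0.514, 0.288 and 0.118 TPM and 1.12 and 1.83 TPM. Both forms were lower in each experiment, and the coding share of the Hoxa10 signal was 28.8% (controls) and 33.5% (labelled Reg1Δ/Δ) in experiment 1, and 49.2% and 86.8% in experiment 2. Of Hoxa7, coding transcripts made up 89.5% to 98.2% in the 4 groups, spread over 4 annotated forms. Hoxa5, Hoxb4 and Hoxb8 are annotated with a single transcript, and the coding transcript of Hoxb5 was listed at 0 in both libraries labelled Reg1Δ/Δ of experiment 2.

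**Figure D3:**
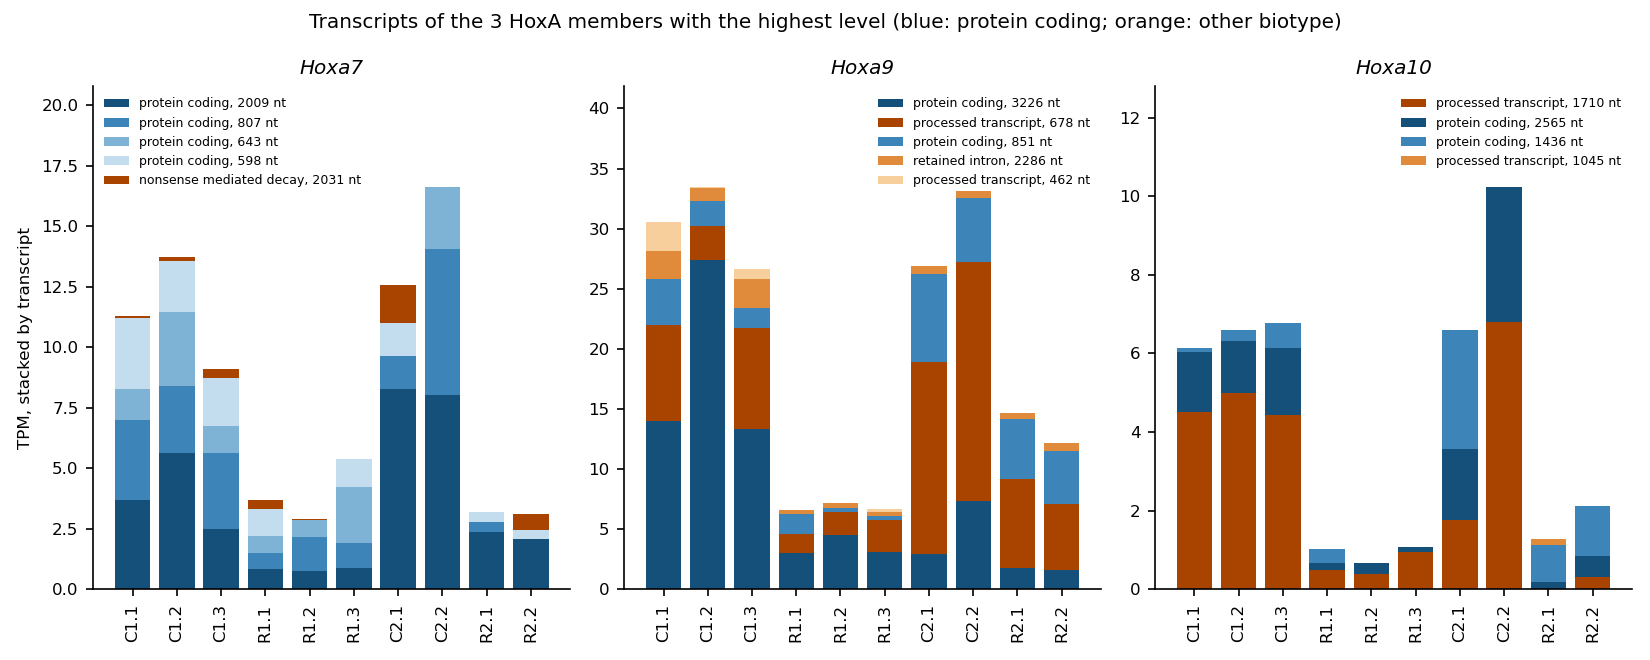
TPM of each annotated transcript of Hoxa7, Hoxa9 and Hoxa10, stacked per library (C control, R labelled Reg1Δ/Δ, then experiment and replicate), with coding transcripts in blue and others in orange. The stacks of R are shorter than those of C in each experiment, and for Hoxa9 the blue part is larger in experiment 1 and the orange part in experiment 2.

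None of the remaining Hox genes reached the filter. Of 11 further HoxA and HoxB genes 8 were listed, and of 18 HoxC and HoxD genes 13. The further HoxA and HoxB genes summed to 0.978 to 3.14 TPM (controls) and 0.198 to 0.357 TPM (labelled Reg1Δ/Δ) in experiment 1, and to 4.59 to 6.97 and 1.15 to 1.78 TPM in experiment 2. The HoxC and HoxD genes summed to at most 2.12 TPM in any library. Of the non-coding RNAs of the clusters, Hotairm1, at the anterior end of HoxA, was at 1.35 to 5.28 TPM in the controls and 0 to 3.19 TPM in the libraries labelled Reg1Δ/Δ (log2 fold change -0.65, FDR = 0.127 by limma). The short RNAs Gm27477 and Gm27867, which lie in or beside Hotairm1, were at 0 in 6 and 7 of the 10 libraries, with at most 8.80 and 8.74 TPM, and were under the filter. Hoxb5os was at 0 to 7.37 TPM in the controls and 0.0488 to 0.882 TPM in the libraries labelled Reg1Δ/Δ, under the filter. The hairpin of the microRNA miR-196b (Mir196b) is 85 bases long and lies wholly within an exon of Hoxa9. It was listed at 0 to 15.9 TPM, with 0 in all libraries of experiment 2, and was not called (log2 fold change 0.69, FDR = 0.361 by limma). Reads there cannot be told from those of Hoxa9.

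The TALE partners of the Hox proteins were mostly lower. Of 11 genes in the list 9 were tested, 8 were called lower and 0 higher, beside 37.9% lower and 15% higher of all tested genes. Their median log2 fold change was -0.64 beside -0.25 for all tested genes. After median-of-ratios scaling 4 were lower and 1 higher, with a median of -0.39. Of all 12874 genes 3389 were then lower and 4059 higher, with a median of 0.06. After quantile normalization 4 were lower and 1 higher, with a median of 0.01. Of all genes 2627 were then lower and 3921 higher, with a median of 0.15. Meis1, the partner of Hoxa9, was at 116, 127 and 99.3 TPM in the controls of experiment 1 and 28.6 and 47.0 TPM in those of experiment 2, and at 8.90, 9.35 and 8.45 TPM and 3.08 and 2.05 TPM in the libraries labelled Reg1Δ/Δ. The groups did not overlap in either experiment (log2 fold change -3.49, SE 0.15, FDR = 3.61e-07), and Meis1 was called lower under both scalings (-3.04 and -3.15). Meis3 (-1.56, FDR = 1.58e-04) and Tgif1 (-1.01, FDR = 5.72e-05) were lower as well, each under both scalings too. Pbx4 did not pass the test (0.16, FDR = 0.498), but was called higher after median-of-ratios scaling (0.52, FDR = 0.0329).

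**Figure D4:**
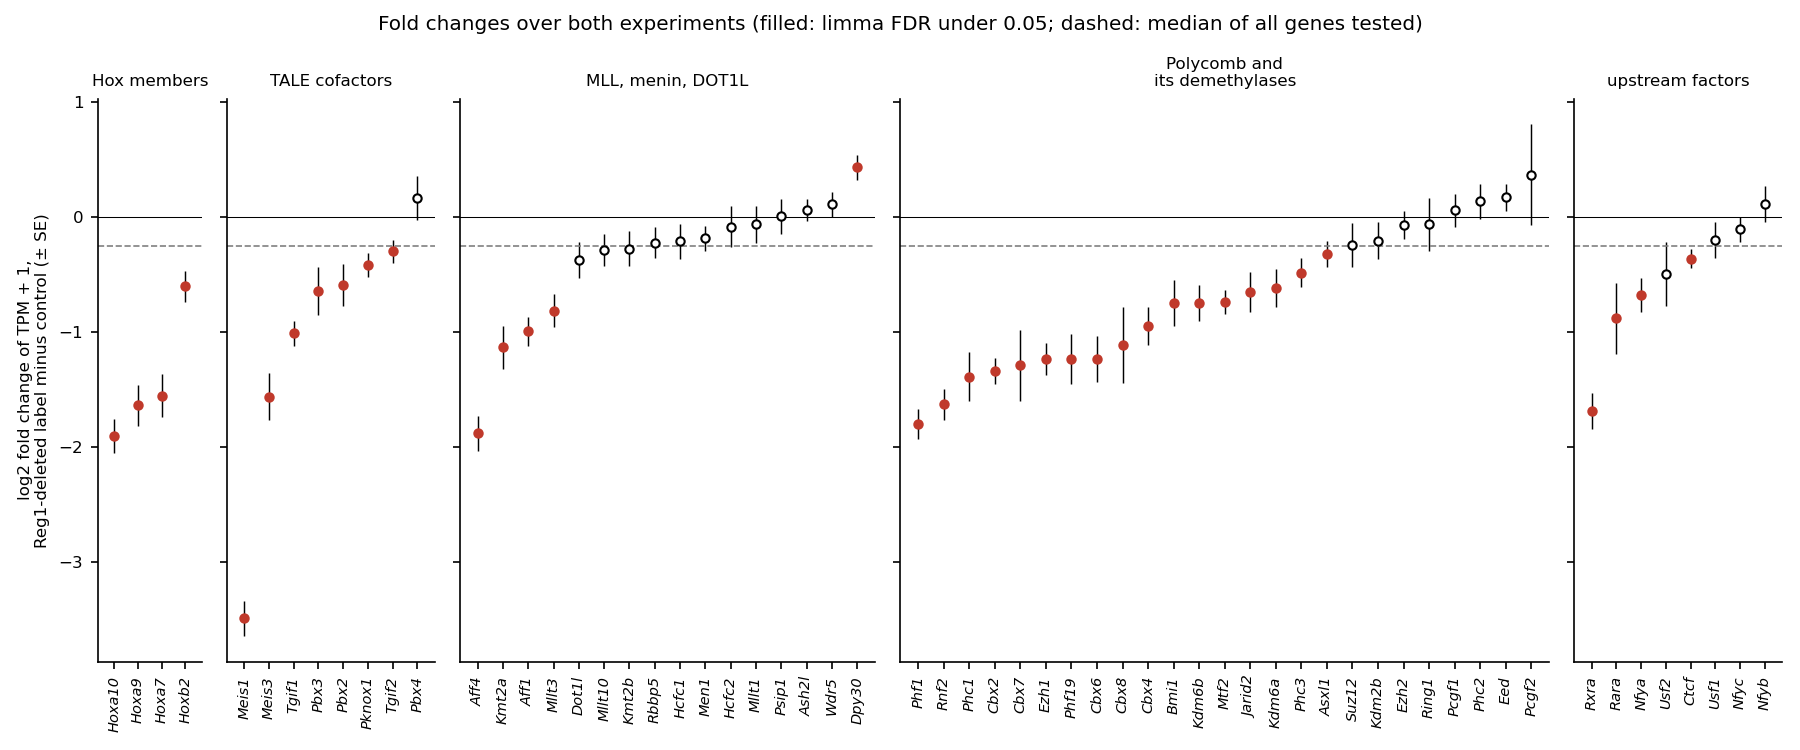
Log2 fold change of TPM + 1 (libraries labelled Reg1Δ/Δ minus controls, both experiments, n = 5 per group) with SE bars for tested Hox genes, TALE partners (8 of the 9 tested are drawn), MLL complex genes, Polycomb genes and upstream factors. Filled points passed limma's FDR under 0.05, and the dashed line is the median of all tested genes, -0.25; Meis1 lies lowest at -3.49.

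The list of genes that keep Hox chromatin active lay near all tested genes. Of 17 genes of the MLL, menin and DOT1L machinery 16 were tested, with 4 lower, 1 higher and 11 not called. Of all tested genes 37.9% were lower and 15% higher. The median log2 fold change of the list was -0.22 beside -0.25 for all tested genes (0.07 after quantile normalization and 0.13 after median-of-ratios scaling, beside 0.15 and 0.06). Aff4, a scaffold of the super elongation complex, was lower (-1.88, FDR = 7.58e-06), as were Kmt2a, the gene of the MLL1 histone methyltransferase (-1.13, FDR = 6.90e-04), and Aff1 (-0.99, FDR = 1.17e-04). After quantile normalization the last pair no longer passed (-0.36, FDR = 0.168 and -0.31, FDR = 0.082). Dpy30, a core subunit of the methyltransferase complexes, was higher (0.43, FDR = 0.00970), also under both scalings. Men1, which encodes menin (-0.19, FDR = 0.184), and Psip1 (0.00, FDR = 0.989) did not pass.

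Of 25 Polycomb genes and their opponents all were tested, with 17 lower, 0 higher and a median log2 fold change of -0.74, beside 37.9% lower, 15% higher and -0.25 for all tested genes. After quantile normalization 8 were lower and 3 higher with a median of -0.26, where 2627 of all 12874 genes were lower and 3921 higher with a median of 0.15. After median-of-ratios scaling 12 were lower and 3 higher with a median of -0.38, where 3389 of all genes were lower and 4059 higher with a median of 0.06. Pcgf2, a PRC1 subunit not called over both experiments and named after its values were seen, was higher in experiment 1 (1.40, FDR = 7.10e-04) and lower in experiment 2 (-1.18, FDR = 0.00777), and its effect differed between them (FDR = 0.0194 by limma). The largest falls were those of Phf1, which guides the complex PRC2 (-1.80, FDR = 3.53e-06), Rnf2, the ubiquitin ligase of PRC1 (-1.63, FDR = 1.08e-05), and Phc1 (-1.39, FDR = 4.60e-04). Mtf2, another guide of PRC2, was lower as well (-0.74, FDR = 2.89e-04). The core PRC2 genes Eed (0.17, FDR = 0.254) and Ezh2 (-0.07, FDR = 0.646) did not pass, but Eed was called higher after median-of-ratios scaling (0.53, FDR = 0.00307). Among 13 factors known to act upstream of Hox genes 8 were tested and 4 were lower, beside 37.9% of all tested genes. Their median was -0.43 beside -0.25, with -0.12 beside 0.15 after quantile normalization and -0.08 beside 0.06 after median-of-ratios scaling. Rxra, a partner of retinoic acid receptors, was lower (-1.69, FDR = 2.15e-05). Nfya, a subunit of NF-Y, was lower (-0.68, FDR = 0.00349), and so was Rara (-0.88, FDR = 0.0354). After quantile normalization neither passed (-0.19, FDR = 0.294 for Nfya and 0.01, FDR = 0.989 for Rara), and Rara did not pass after median-of-ratios scaling (FDR = 0.136). The insulator gene Ctcf was lower by a little (-0.36, FDR = 0.00513) and about as low after quantile normalization (-0.35, FDR = 0.00492), but stood at 0.00 after median-of-ratios scaling. Nfyc (-0.11, FDR = 0.404) and Usf1 (-0.20, FDR = 0.313) did not pass.

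The genes with the most similar pattern were sought over the 10 libraries, by the root mean square difference of log2(TPM + 1) centred within each experiment, among 8905 protein-coding genes with a mean of at least 5 TPM. For Hoxa9 they were Zfp260, Osbpl9 and Smad3, with differences of 0.13 each. For Hoxa7 they were Cep85 (0.15), Cited2 (0.205) and Ypel5 (0.21). The choice by pattern brings similar log2 fold changes with it, so these values only describe the genes. They were -1.55, -1.57 and -1.72 beside -1.64 for Hoxa9, and -1.49, -1.73 and -1.63 beside -1.55 for Hoxa7.

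Markers of cell types moved with these genes. In bulk RNA, fewer cells of a type and less RNA per cell cannot be told apart. Of the 12 HSC markers (Hoxb5 among them) 11 were tested and 10 were lower, beside 37.9% of all tested genes. Tie1 and Fgd5 passed the filter through the controls alone. The median log2 fold change of the tested HSC markers was -2.88, a larger fall than that of the tested Hox genes (-1.59). The summed level of the 12 HSC markers was 801 to 909 TPM in the controls and 189 to 568 TPM in the libraries labelled Reg1Δ/Δ of experiment 1, and 371 to 547 and 184 to 207 TPM in experiment 2. Ly6a, the tested marker that was not called, held 449, 50.9 and 369 TPM of these sums in the libraries labelled Reg1Δ/Δ of experiment 1. Procr, the gene of the stem cell marker EPCR, was at 19.8 to 37.3 TPM in the controls and 0.108 to 1.36 TPM in the libraries labelled Reg1Δ/Δ, where the label of stem cells therefore rests on the sort. The genes of the sort markers were present in all libraries, with Kit at 56.1 to 367 TPM and Ly6a (Sca-1) at 50.9 to 449 TPM. Kit was called lower (log2 fold change -1.39, FDR = 1.08e-04 by limma), with each library labelled Reg1Δ/Δ below every control of its experiment. Ly6a was not called (0.92, FDR = 0.155 by limma). Cd34 and Flt3, whose proteins the gate excludes, were both lower, and their summed level was 62.9 to 270.4 TPM in the controls and 10.7 to 22.0 TPM in the libraries labelled Reg1Δ/Δ.

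Most tested markers of mature or committed cells were lower too, while those of the erythroid list went both ways. Of all tested genes 37.9% were lower and 15% higher. All 9 tested B-lineage markers of 10 were lower, with summed levels of 191 to 1674 TPM in the controls and 3.14 to 25.1 TPM in the libraries labelled Reg1Δ/Δ. Ly6g, listed at 0 in 3 libraries labelled Reg1Δ/Δ, and Itgam passed the filter through the controls alone. They belong to the 12 granulocyte and monocyte markers, of which 9 were lower and 3 not called (2931 to 11732 against 320 to 1087 TPM). Those not called, the granule genes Mpo, Elane and Ctsg, were lower in experiment 1 (-2.95, -2.52 and -2.45) and at 0.01, 0.16 and 0.17 without a call in experiment 2, a difference between experiments that did not pass (FDR from 0.37 to 0.42 by limma). All 5 tested megakaryocyte markers of 6 were lower (105 to 464 against 22.4 to 100.7 TPM). All 3 tested T and NK markers of 8 were lower (109 to 329 against 39.7 to 148 TPM). Of the untested ones, Cd3e, Cd3d and Cd8a overlapped between the groups in at least 1 experiment, and Cd3g and Klrb1c did not. Of 8 erythroid markers 4 were lower and 3 higher (1143 to 4066 against 709 to 1172 TPM for their sum). Those lower were Hba-a1 (-2.50), Hbb-bt (-2.14), Hbb-bs (-3.19) and Alas2 (-2.13). Those higher, also under both scalings, were Klf1, a transcription factor of red cell precursors (1.80, FDR = 9.55e-04), Epor, the erythropoietin receptor (1.44, FDR = 0.00197), and Tfrc, the transferrin receptor (2.07, FDR = 2.09e-05 by limma). The counts of these lists changed by at most 1 call under either scaling, and the part of cell make-up in the Hox values was not tested.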

How the data were processed

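RNA of sorted HSCs was sequenced from single mice, 5 controls and 5 labelled Reg1Δ/Δ. The authors prepared cDNA with an ultra low input SMART kit (the labels and the methods name different versions) and Nextera XT. Reads were mapped by the authors with STAR on GRCm38, TPM came from Salmon 0.9.1 with a GENCODE annotation, and the values were deposited per transcript as log2(TPM + 1). Depth is therefore unknown, and no counting error can be given. The log2 values were turned back into TPM, which was added up per gene. The 29 transcripts of the 10 genes all matched GENCODE M21 by ID.

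A gene was tested where 5 or more of the 10 libraries had 1 TPM or more. Tests were made by limma 3.58.1 in R 4.3.3 on log2(TPM + 1), and the experiment entered as a covariate. Effects per experiment and their difference were contrasts in a fit of 4 groups. Benjamini-Hochberg adjustment ran over all tested genes (FDR, threshold 0.05). The experiment of each library was read from the 2 forms of sample name, whose numbers per group match the study's 2 experiments. In the file of the second library labelled Reg1Δ/Δ of experiment 2, the header names the first one, with other values, and it was used for the sample it was deposited under. Isoforms and promoter motifs were described without a test.

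All 10 genes are named. Of the other lists, the 3 genes with the highest mean TPM and the 3 called genes with the largest change were named, with non-coding cluster genes of a mean of 1 TPM or more and, for patterns, the 3 most alike genes of the 2 highest members. A listed gene that this rule picks is not reported here. Marker genes and overlapping genes are named outside this rule, after their values were seen. The genes and lists were chosen with earlier results of these data known. Alternatives were no filter, 1 TPM or more in every library, a pseudocount of 0.1, quantile and median-of-ratios scaling, coding transcripts only (with and without rescaling), no covariate, a trend in eBayes, a replicate block, each experiment alone and each library left out. Promoter sequences are those of RefSeq on GRCm38.p6.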

Additional observations from a re-analysis of the deposited data

How the results depend on the processing

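Over both experiments 4 genes were called lower. Without the filter 8 were called, and with 1 TPM or more asked of every library 2, since only Hoxa7 and Hoxa9 could be tested. Over coding transcripts alone, 5 of 5 tested genes were called with TPM rescaled, beside 4596 lower and 1887 higher of all 11078 genes. Hoxa5 was added here, having passed the filter through the controls. Without rescaling 3 of 3 were called, beside 4088 lower and 2004 higher of all 10464 genes. With a pseudocount of 0.1, 4 genes were called, with log2 fold changes from -2.54 (Hoxa10) to -1.12 (Hoxb2). In experiment 1, quantile normalization left 2 calls, and in experiment 2 alone, without the pooled spread, 1 gene (Hoxa7) was called, with FDR = 0.053 for Hoxa9, 0.0604 for Hoxa10 and 0.112 for Hoxb2. Hoxb2 turned to 0.17 (FDR = 0.247) after quantile normalization, and without the covariate its FDR was 0.0957. With each library left out in turn, all 4 calls over both experiments stayed, with log2 fold changes of Hoxa9 from -1.76 to -1.55 and of Hoxb2 from -0.68 to -0.52, and 3 or 4 calls stayed in the experiment concerned, the lost one being that of Hoxb2 (without any of 7 libraries). A lone library left in a group of experiment 2 is assumed to vary like the other groups. Hoxa7 kept its direction and its call in all 22 alternatives (weakest after quantile normalization, at -0.82), Hoxa9 in 21 of 22 and Hoxa10 in 20 of 21. Quantile normalization gave 2627 lower and 3921 higher genes in all, against 4880 and 1933, and the cause was not tested.

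Same-numbered libraries of the 2 groups deviated from their group means with correlations over genes of 0.03, 0.18 and 0.07 in experiment 1. Libraries with different numbers had -0.12 to 0.06 there. In experiment 2 the 2 libraries of a group deviate as mirror images, so the values of -0.05 and 0.05 cannot show a pairing. Whether same-numbered libraries were paired is not known. With the replicate block, 4 genes were called as well, and 4545 genes were lower and 1703 higher. Genes near or under 1 TPM are limited by an unknown read depth, and TPM shows only shares of the RNA in a library.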
